A study of Mus musculus with 5 samples.

Results

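Cholesterol synthesis, its control by SREBP2, and the uptake and storage of cholesterol were followed through 30 named genes in mouse liver, of which 26 had a probe set carrying that gene's symbol alone. For each gene the probe set with the highest mean over the 5 arrays was taken, out of 18820 genes measured in this way. Acat2, Soat1, Soat2 and Mbtps2 had no such probe set and are not analysed here as single genes. The tested livers came from adult C57Bl/6 mice that received M279, an antibody to the macrophage growth factor receptor CSF1R (2 arrays, written anti-CSF1R). The control livers came from mice of that strain that received rat IgG (3 arrays). Both agents were injected into the peritoneal cavity at 300 µg, 3 times a week for 6 weeks. Each array measured whole liver, so a transcript's fewer source cells and its lower amount per cell cannot be told apart. The labels do not say whether an array stands for 1 animal or for a pool, so a p-value here measures only the spread between these samples, which may be technical.

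Cholesterol is built from acetyl-CoA through mevalonate, isoprenoid diphosphates, squalene and lanosterol, and hepatocytes are a main site of this synthesis. Its genes are switched on together by SREBP2, a transcription factor held in the endoplasmic reticulum membrane. When sterols are scarce the escort protein SCAP carries SREBP2 to the Golgi, where the site-1 and site-2 proteases (Mbtps1 and Mbtps2) release its active part. When sterols are plentiful the INSIG proteins hold SCAP back, and Insig1 is itself a target of SREBP2.

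The DNA just before the start of a gene is where SREBP2 acts, with NF-Y and Sp1 as partner factors on many of these genes. RefSeq (GRCm38.p6) promoter windows, from 250 bases before to 50 bases after the start, were matched by symbol for 25 of the 30 genes. The sequences below show the 250 bases before the start for Hmgcs1, the gene whose window held the sterol element TCACNCCAC. Those of Mvd, Lss, Cyp51, Insig1 and Srebf2, whose transcripts were lower in anti-CSF1R liver on every array, follow it. That of Mbtps1, the gene with the difference closest to 0, is given for contrast. These 6 were chosen after values were seen. Capitals mark the sterol element, its looser form TCACNNCA, the NF-Y box CCAAT and the Sp1 box GGGCGG, on either strand, and each sequence reads 5′ to 3′ on the strand of its gene.
Hmgcs1, chr13:119690101-119690350, plus strand: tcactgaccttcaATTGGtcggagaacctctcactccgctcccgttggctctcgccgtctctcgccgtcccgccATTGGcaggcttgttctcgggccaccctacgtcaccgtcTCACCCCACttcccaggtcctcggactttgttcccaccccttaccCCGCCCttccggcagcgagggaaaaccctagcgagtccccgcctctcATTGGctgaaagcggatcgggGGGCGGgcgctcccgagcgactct
Mvd, chr8:122443423-122443672, minus strand: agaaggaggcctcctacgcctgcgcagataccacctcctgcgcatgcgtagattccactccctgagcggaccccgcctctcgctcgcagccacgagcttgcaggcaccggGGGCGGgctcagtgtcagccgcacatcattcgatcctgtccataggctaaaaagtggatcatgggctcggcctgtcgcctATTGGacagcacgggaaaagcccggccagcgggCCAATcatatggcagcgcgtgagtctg
Lss, chr10:76531355-76531604, plus strand: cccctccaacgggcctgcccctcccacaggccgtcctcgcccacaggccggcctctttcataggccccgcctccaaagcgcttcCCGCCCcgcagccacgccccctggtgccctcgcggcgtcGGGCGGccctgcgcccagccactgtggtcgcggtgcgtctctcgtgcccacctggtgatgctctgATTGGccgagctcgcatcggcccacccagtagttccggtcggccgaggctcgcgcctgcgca
Cyp51, chr5:4104698-4104947, minus strand: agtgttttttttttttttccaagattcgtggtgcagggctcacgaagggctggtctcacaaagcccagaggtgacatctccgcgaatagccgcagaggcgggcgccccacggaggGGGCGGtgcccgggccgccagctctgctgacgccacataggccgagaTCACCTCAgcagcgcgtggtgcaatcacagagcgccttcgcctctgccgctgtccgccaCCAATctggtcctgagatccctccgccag
Insig1, chr5:28071162-28071411, plus strand: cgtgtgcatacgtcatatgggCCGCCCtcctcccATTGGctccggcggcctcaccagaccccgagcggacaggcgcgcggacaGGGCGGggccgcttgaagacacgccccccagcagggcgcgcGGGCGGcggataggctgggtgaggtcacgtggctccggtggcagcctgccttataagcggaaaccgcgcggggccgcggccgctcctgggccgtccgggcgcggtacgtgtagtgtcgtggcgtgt
Srebf2, chr15:82147019-82147268, plus strand: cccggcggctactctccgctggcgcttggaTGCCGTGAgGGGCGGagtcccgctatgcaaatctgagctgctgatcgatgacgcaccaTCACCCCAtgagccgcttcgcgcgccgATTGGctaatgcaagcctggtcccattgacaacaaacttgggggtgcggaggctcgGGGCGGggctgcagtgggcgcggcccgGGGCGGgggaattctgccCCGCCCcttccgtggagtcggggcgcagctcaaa
Mbtps1, chr8:119558762-119559011, minus strand: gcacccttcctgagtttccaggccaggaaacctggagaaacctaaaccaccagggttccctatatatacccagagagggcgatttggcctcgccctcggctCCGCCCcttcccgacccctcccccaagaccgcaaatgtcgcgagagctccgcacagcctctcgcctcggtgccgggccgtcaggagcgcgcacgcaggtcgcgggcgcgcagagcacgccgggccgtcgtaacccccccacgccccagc

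TCACNCCAC was found in 1 of the 25 genes with a window, namely Hmgcs1 (137 bases before the start), against 1.44% of all 27025 genes with a window. The looser TCACNNCA, which every match of the strict element also meets and which was chosen after the windows were seen, was in 10 of 25 (40%), against 15.7% of all genes and 13.2% of the 4627 genes in the upper 3 deciles of array signal. In Cyp51 it lay 88 bases before the start. CCAAT was in 21 of 25 genes (84%), against 41.1% of all genes and 42.6% of the genes of high signal. GGGCGG was also in 21 of 25, against 38.2% and 69.6%. None of the 7 printed stretches had an NF-Y, Sp1 or strict sterol match overlapping another of these 3, and that of Mbtps1 held no CCAAT. Among the measured genes, CCAAT was in 12 of 13 whose anti-CSF1R values all lay below the controls and in 8 of the other 9. GGGCGG was in 12 of the 13 and 7 of the 9, and TCACNNCA in 8 of the 13 and 2 of the 9. These splits were not tested. A match shows only that these letters are there.

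The largest differences lay at Sqle, Mvd, Lss, Hmgcs1, Cyp51, Pmvk and Dhcr7, which were at 54% to 71% of the control level in anti-CSF1R liver, while Mvk, Tm7sf2, Ebp, Insig2 and Mbtps1 had small mean differences with 95% intervals on both sides of 0. Of the 26 genes measured, 21 had a lower and 5 a higher mean in anti-CSF1R than in control liver, where of all 18820 genes 8230 were lower and 10590 higher. For 15 of the 26 (57.7%) both anti-CSF1R arrays lay below all 3 controls, against 19.5% of all 18820 genes. For none did both lie above the controls, where 25.1% of all genes did. No gene passed limma's two-sided test at an adjusted p of 0.05: 0 of the 26 were called lower and 0 higher, as were 0% of all 35556 probe sets in each direction. The smallest adjusted p among the 26 genes was 0.175. At an unadjusted p under 0.05 in limma 10 of the 26 were lower (38.5%) against 8.4% of all genes, and 0 were higher against 9.91% of all genes. The median log2 difference was -0.23 over the 26 genes and 0.043 over all genes.

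**Figure D1:**
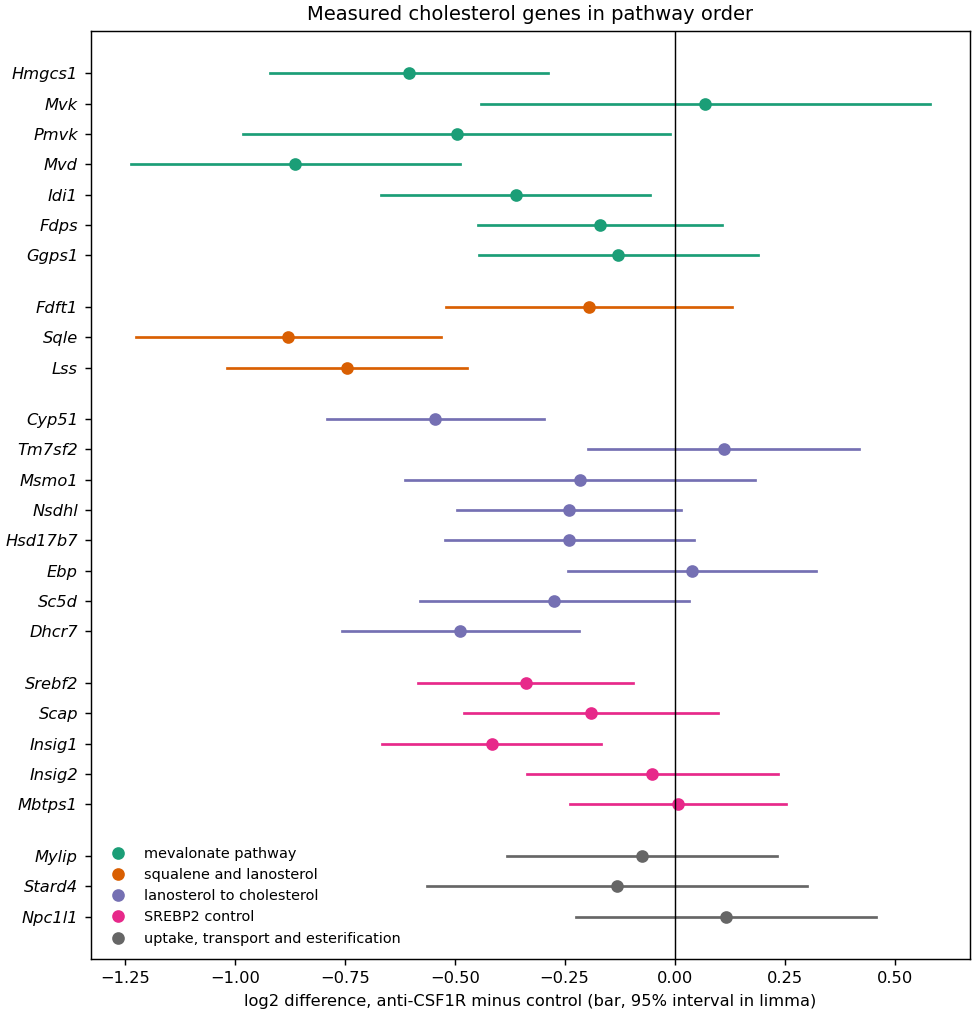
Log2 difference (anti-CSF1R minus control) of each measured cholesterol gene, in pathway order down the page, with the 95% interval from limma as a bar and colours for the pathway steps. The intervals of 10 genes lay wholly below 0 and none lay wholly above it, against 8.4% of all genes below and 9.91% above.

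The first steps, up to the isoprenoid diphosphates, had lower means at 6 of 7 measured genes, with a median difference of -0.36. In 5 of the 7 both anti-CSF1R arrays lay below all controls, against 19.5% of all genes. Hmgcs1, the cytosolic synthase that makes HMG-CoA, had log2 intensities of 10.26 and 10.10 in anti-CSF1R liver, against 10.70, 10.71 and 10.95 in control liver. The 2 groups did not overlap, and the difference of -0.60 ± 0.13 (SE, 2 anti-CSF1R and 3 control arrays) put anti-CSF1R liver at 65.8% of control (limma, adjusted p = 0.191). Mvd, which removes carbon dioxide to give isopentenyl diphosphate, had 6.26 and 6.59 in anti-CSF1R liver, against 7.36, 7.11 and 7.39 in control liver. Its difference was -0.86 ± 0.15 (SE; limma, adjusted p = 0.187), or 55.0% of control, with anti-CSF1R replicate 1 the lowest of the 5 arrays.

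Pmvk, the kinase just before Mvd, had 7.59 and 7.97 in anti-CSF1R liver, against 8.58, 8.08 and 8.16 in control liver. Its difference of -0.50 ± 0.20 (SE; limma, adjusted p = 0.265) rested more on anti-CSF1R replicate 1, without which it was -0.31. Idi1, the isomerase of isopentenyl diphosphate, had 10.19 and 10.31 in anti-CSF1R liver, against 10.47, 10.63 and 10.73 in control liver, a difference of -0.36 ± 0.12 (SE; limma, adjusted p = 0.235). A second probe set of Idi1 gave -0.37. Fdps, which makes farnesyl diphosphate, had 10.44 and 10.61 in anti-CSF1R liver, against 10.69, 10.63 and 10.77 in control liver, so that the groups were apart by only 0.020. Its difference of -0.17 was -0.089 without anti-CSF1R replicate 1.

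Mvk and Ggps1 were the 2 genes of these steps whose groups overlapped. Mvk, the mevalonate kinase, had 7.83 and 8.41 in anti-CSF1R liver, against 8.13, 7.83 and 8.202 in control liver. Replicate 2 of anti-CSF1R liver lay above all controls and replicate 1 within their range, and the 95% interval of the difference of 0.07 ran from -0.44 to 0.58, the widest among the 26 genes. Ggps1, which makes geranylgeranyl diphosphate on a side branch, had 6.98 and 6.71 in anti-CSF1R liver, against 7.06, 6.89 and 6.98 in control liver, with a difference of -0.13 (95% interval -0.44 to 0.19).

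The steps from farnesyl diphosphate to lanosterol had lower means at all 3 genes, with a median of -0.74. Sqle, the squalene epoxidase and a rate-limiting enzyme of the pathway, had 8.87 and 9.17 in anti-CSF1R liver, against 9.78, 10.04 and 9.88 in control liver. The gap between the nearest arrays of the groups was 0.61, the widest of the 26 genes, and anti-CSF1R liver was at 54.4% of control (difference -0.88 ± 0.14, SE; limma, adjusted p = 0.178). Lss, which folds squalene epoxide into lanosterol, had 8.77 and 8.68 in anti-CSF1R liver, against 9.54, 9.37 and 9.50 in control liver. Both anti-CSF1R arrays were about equally low, with a difference of -0.74 ± 0.11 (SE; limma, adjusted p = 0.175), or 59.7% of control.

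Fdft1, the squalene synthase that precedes Sqle, overlapped between the groups. Its values were 11.24 and 11.40 in anti-CSF1R liver, against 11.34, 11.61 and 11.60 in control liver, and its difference of -0.19 (95% interval -0.52 to 0.13) was -0.12 without anti-CSF1R replicate 1. The other probe sets annotated to Fdft1 together with the protease gene Ctsb gave -0.12 and -0.22.

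**Figure D2:**
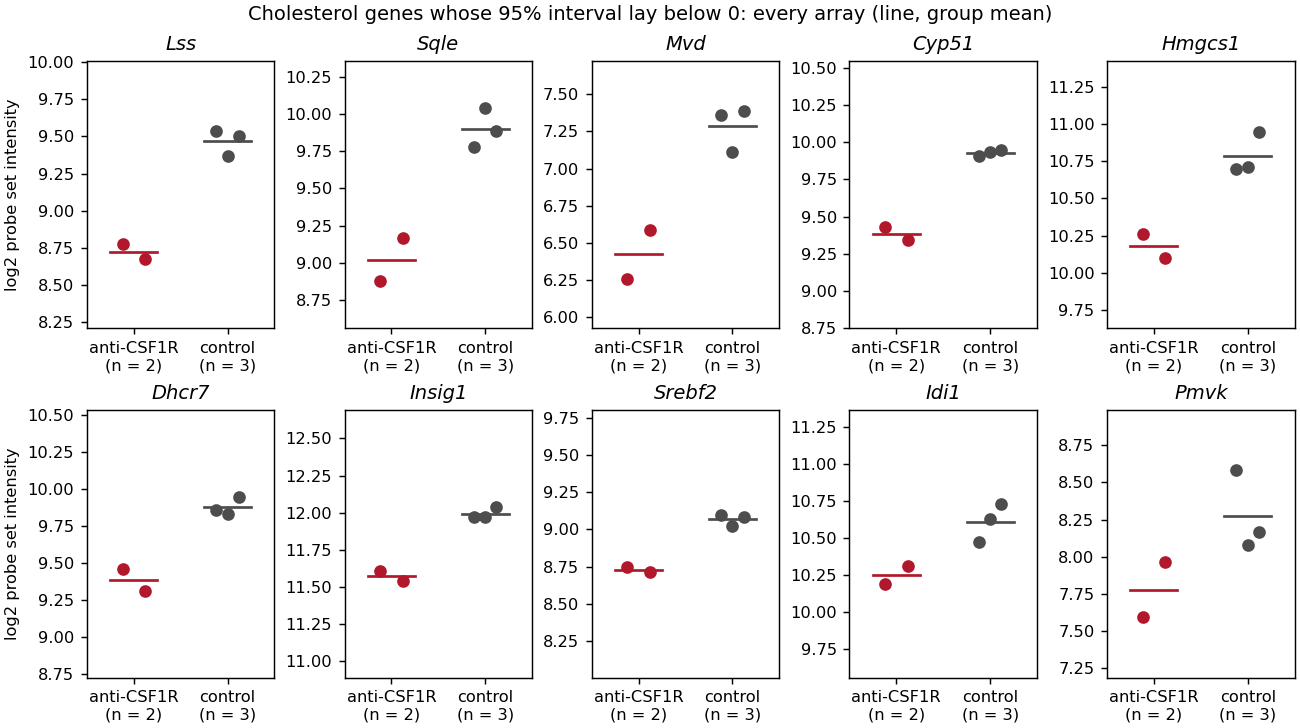
Log2 probe set intensity on every array for the 10 cholesterol genes whose 95% interval lay below 0, anti-CSF1R (n = 2) left of control (n = 3), with lines at the group means and the same height of scale in each panel. In all 10 both anti-CSF1R arrays lie below the lowest control, by a gap of 0.61 at Sqle and 0.11 at Pmvk. The 10 were chosen by their intervals on these same arrays, so this is no further evidence.

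Between lanosterol and cholesterol the 8 measured genes were mixed, with 6 lower and 2 higher means and a median of -0.24. In 5 of the 8 both anti-CSF1R arrays lay below all controls, against 19.5% of all genes. Cyp51, the lanosterol demethylase that opens this stretch, had 9.43 and 9.34 in anti-CSF1R liver, against 9.91, 9.93 and 9.95 in control liver. The controls spanned little, and the difference was -0.54 ± 0.10 (SE; limma, adjusted p = 0.187), or 68.6% of control. Dhcr7, the last reductase of one route to cholesterol, had 9.46 and 9.31 in anti-CSF1R liver, against 9.85, 9.83 and 9.95 in control liver, a difference of -0.49 ± 0.11 (SE; limma, adjusted p = 0.192).

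Sc5d, Nsdhl and Hsd17b7, enzymes between those ends, had smaller differences with the groups apart. Sc5d, the sterol C5 desaturase, had 11.73 and 11.60 in anti-CSF1R liver, against 11.83, 11.91 and 12.09 in control liver, a difference of -0.27 (95% interval -0.58 to 0.032). Nsdhl, a dehydrogenase of the C4 demethylation complex, had 10.69 and 10.73 in anti-CSF1R liver, against 10.90, 11.03 and 10.92 in control liver, a difference of -0.24 (-0.49 to 0.015). Hsd17b7, the keto reductase of that complex, had 10.31 and 10.33 in anti-CSF1R liver, against 10.43, 10.65 and 10.60 in control liver, also a difference of -0.24 (-0.52 to 0.044). The intervals of all 3 reached 0.

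Msmo1, the C4 methyl oxidase of the same complex, overlapped, with 10.08 and 10.49 in anti-CSF1R liver, against 10.51, 10.36 and 10.63 in control liver. Its difference of -0.21 came almost wholly from anti-CSF1R replicate 1 and was -0.0087 without it. Tm7sf2, a sterol C14 reductase, had 10.43 and 10.69 in anti-CSF1R liver, against 10.36, 10.50 and 10.48 in control liver, a difference of 0.11 (95% interval -0.20 to 0.42). Ebp, the sterol isomerase, had 10.89 and 11.07 in anti-CSF1R liver, against 10.94, 10.87 and 11.01 in control liver, a difference of 0.039 (-0.24 to 0.32) that turned to -0.029 with quantile normalization. Both intervals included 0, and the differences between genes were not tested.

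**Figure D3:**
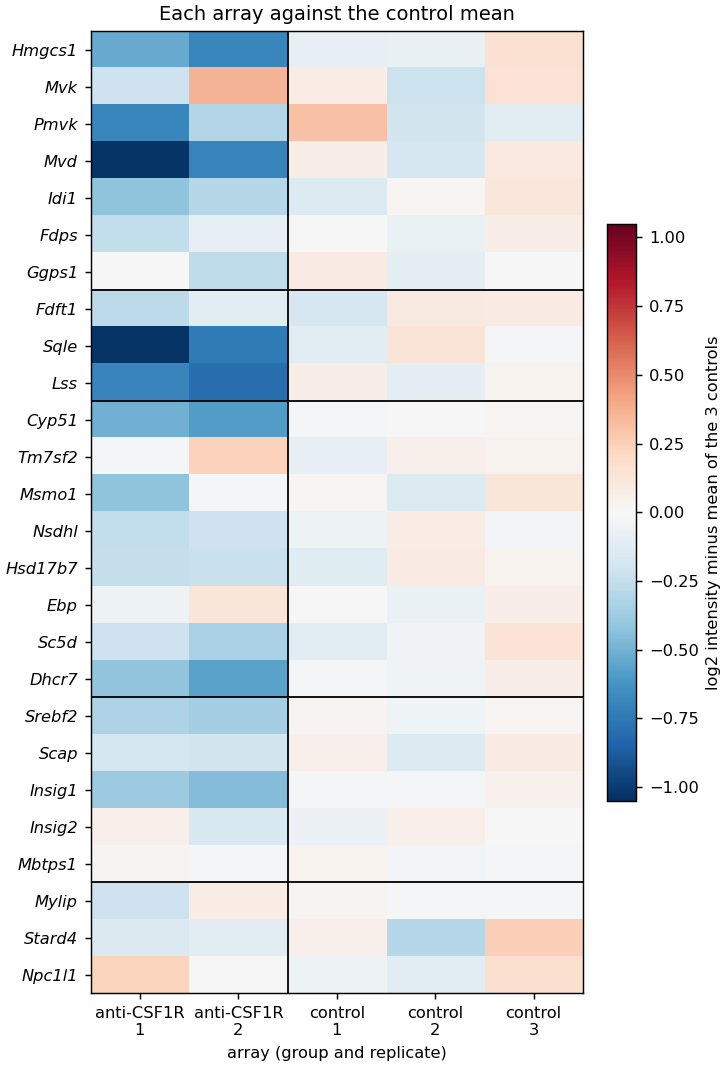
Log2 intensity of each measured cholesterol gene on each array minus the mean of its 3 controls, genes in pathway order down the page and anti-CSF1R arrays left of control arrays, blue for lower and red for higher. On each of the anti-CSF1R arrays 22 of 26 genes lie below the control mean.

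Of the genes that control SREBP2, Srebf2 and Insig1 were lower and the others differed less. Srebf2, which encodes SREBP2, had 8.75 and 8.71 in anti-CSF1R liver, against 9.09, 9.02 and 9.08 in control liver. Arrays of 1 group lay within 0.1 of each other, and the difference was -0.34 ± 0.10 (SE; limma, adjusted p = 0.210), or 79.1% of control. Insig1, the sterol-sensitive retention protein, had 11.61 and 11.54 in anti-CSF1R liver, against 11.97, 11.97 and 12.04 in control liver, a difference of -0.42 ± 0.10 (SE; limma, adjusted p = 0.192). Insig2, its paralog, had 11.40 and 11.18 in anti-CSF1R liver, against 11.28, 11.40 and 11.35 in control liver. Here the groups overlapped, and the interval of the difference of -0.051 ran from -0.34 to 0.24. The 95% intervals of Insig1 (-0.66 to -0.17) and Insig2 overlap, and no test of the difference between the paralogs was run.

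Scap had 9.42 and 9.41 in anti-CSF1R liver, against 9.66, 9.46 and 9.69 in control liver, so that the groups were apart by 0.042 and differed by -0.19 (95% interval -0.48 to 0.098). A dim second probe set of Scap gave -0.15. Mbtps1, the site-1 protease, had 9.15 and 9.11 in anti-CSF1R liver, against 9.16, 9.09 and 9.11 in control liver, a difference of 0.0082 with an interval from -0.24 to 0.25. A probe set annotated to both Mbtps2, the site-2 protease, and Yy2 had 7.02 and 6.76 in anti-CSF1R liver, against 7.10, 7.33 and 7.16 in control liver (-0.31 ± 0.13, SE), and which of the 2 genes it reports cannot be told apart.

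The 3 measured genes of uptake and transport had groups that overlapped, with a median of -0.073. Mylip, a ubiquitin ligase induced by oxysterols that marks the LDL receptor for degradation, had 7.42 and 7.72 in anti-CSF1R liver, against 7.67, 7.62 and 7.63 in control liver. Its anti-CSF1R arrays lay on either side of the controls, with a difference of -0.073 that was 0.043 after quantile normalization. Stard4, a cytosolic sterol carrier and a target of SREBP2, had 8.43 and 8.47 in anti-CSF1R liver, against 8.64, 8.28 and 8.83 in control liver (-0.13, 95% interval -0.56 to 0.30). That difference was -0.0067 without control replicate 3 and -0.28 without control replicate 2. Npc1l1, a transporter that takes up cholesterol at apical membranes, had 4.41 and 4.18 in anti-CSF1R liver, against 4.13, 4.06 and 4.35 in control liver (0.12, interval -0.22 to 0.46), at a low signal.

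The 2 anti-CSF1R arrays gave similar values for these genes as a whole. The median difference from the control mean was -0.25 on anti-CSF1R replicate 1 and -0.22 on replicate 2, and 14 genes were lower on replicate 1 and 12 on replicate 2. The control arrays stood at -0.015, -0.046 and 0.059 from their own mean. Of the 26 genes, 18 had a lower mean in anti-CSF1R liver whichever array was left out.

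Differences across the whole table varied with signal, and this is set beside the cholesterol genes. All genes were divided into 10 equal groups (deciles) by mean signal. In the lowest 4 deciles of signal the median difference of all genes lay between 0.16 and 0.20. It was -0.15 and -0.16 in the sixth and seventh deciles and 0.0032 in the highest. The share of all genes with a lower mean was 75%, 71% and 63% in the seventh, eighth and ninth deciles and 49% in the highest. Of the cholesterol genes 16 were in the highest decile, and 11 of them had both anti-CSF1R arrays below all controls, against 18.5% of all genes in that decile. At an unadjusted p under 0.05 in limma 6 of these 16 were lower, against 4.84% of that decile. In the ninth decile, where the median of all genes was -0.069, the groups were apart in 2 of 4 cholesterol genes, against 29.3% of all genes. In the eighth decile, with a median of -0.13 over all genes, they were apart in 1 of 3, against 39.5%. In the seventh they were apart in 1 of 2, namely Mvd, against 43.7%.

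**Figure D4:**
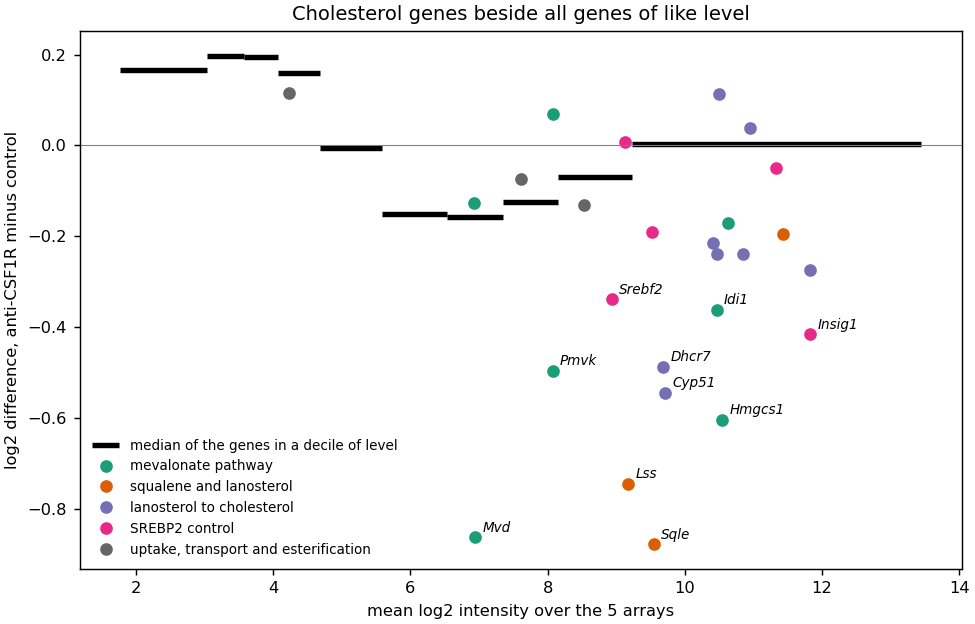
Log2 difference (anti-CSF1R minus control) against mean log2 intensity for the measured cholesterol genes (points, coloured by step, named where the 95% interval lay below 0) and the median of all 18820 genes in each decile of signal (black bars). Most cholesterol genes lie at high signal, where the median of all genes is near 0, and 20 of 26 lie below the median of their own decile.

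Cell type markers were read on the same arrays. Of 8 hepatocyte markers 3 were lower and 5 higher, with a median of 0.043, and their summed intensity was 54830 to 56450 in anti-CSF1R liver and 54440 to 56000 in control liver. Albumin (Alb) differed by 0.0010. The groups were apart at 2 of the lower markers, Tat (-0.29) and Hnf4a (-0.18), against 19.5% of all genes. They were also apart at 3 of the higher ones, Ttr (0.087), Serpina1c (0.099) and Cyp2e1 (0.11), against 25.1% of all genes. Csf1r, which encodes the antibody's target, had 7.93 and 8.12 in anti-CSF1R liver, against 8.49, 8.68 and 8.61 in control liver. Of the 8 markers of macrophages and Kupffer cells, Csf1r among them, 6 were lower, while Cd5l (0.029) and Lyz2 (0.085) had higher means. The groups were apart in 2 of the 8, Csf1r and Adgre1, against 19.5% of all genes lower with groups apart. The summed intensity was 3218 to 4215 in anti-CSF1R liver and 3852 to 4397 in control liver. The median of the 8 markers was -0.47 on anti-CSF1R replicate 1 and 0.011 on replicate 2, and that of Csf1r alone -0.66 and -0.47. All 3 measured neutrophil markers were higher with the groups apart, against 25.1% of all genes, at a summed intensity of 79.2 to 87.2 in anti-CSF1R liver and 61.5 to 71.3 in control liver. They lay in the fourth decile of signal, where the median difference of all genes was 0.16 and 20.5% of genes were lower. The 4 stellate cell markers had higher means, with a median of 0.26 (summed 2888 to 2987 in anti-CSF1R and 2710 to 2852 in control liver). The groups were apart at Lrat (0.36) and Rgs5 (0.38), against 25.1% of all genes, and overlapped at Dcn (0.015) and Des (0.16). Endothelial, bile duct and lymphocyte markers had medians of -0.13, 0.016 and -0.082. Among these, the groups were apart at Clec4g of the endothelium (0.31) and Sox9 of the bile duct (-0.51), which differed in opposite directions. No marker was listed at 0 on any array. The part of macrophage, neutrophil and stellate cell RNA in the cholesterol results was not tested.

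Other genes that handle cholesterol showed no single direction. Of 22 further genes of sterol sensing, degradation, trafficking and lipoprotein uptake 15 were measured, of which 10 were lower and 5 higher, with a median of -0.19. The median was -0.016 on anti-CSF1R replicate 1 and -0.23 on replicate 2. The groups were apart in 4 of the lower and 1 of the higher genes, against 19.5% of all genes lower and 25.1% higher with groups apart. Those with the smallest p were Erlin1, Dhdds and Osbp. Erlin1, part of the complex that degrades HMG-CoA reductase, had 8.64 and 8.23 in anti-CSF1R liver, against 8.76, 8.84 and 8.92 in control liver (-0.40 ± 0.15, SE). Dhdds, which turns farnesyl diphosphate towards dolichol, had 8.26 and 8.22 in anti-CSF1R liver, against 8.43, 8.48 and 8.55 in control liver. Osbp, an oxysterol-binding transfer protein, overlapped, with 9.55 and 9.14 in anti-CSF1R liver, against 9.53, 10.11 and 9.86 in control liver.

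Genes of cholesterol export and of the oxysterol receptor LXR were split in direction. Of 6 measured 3 were lower and 3 higher, 2 with groups apart each way, against the same 19.5% and 25.1% of all genes. The 6 include 2 that are not exporters, the receptor gene Nr1h3 (0.16) and Lpcat3 (-0.010), and both overlapped between the groups. Abcg5 and Abcg8, the partners in the transporter that moves sterols into bile, were higher. Abcg5 had 10.21 and 10.05 in anti-CSF1R liver, against 9.75, 9.88 and 9.84 in control liver (0.31 ± 0.11, SE; limma, adjusted p = 0.245). Abcg8, named after its value was seen as the partner of Abcg5, had 9.68 and 9.46 in anti-CSF1R liver, against 9.22, 9.24 and 9.32 in control liver (0.31 ± 0.12, SE; limma, adjusted p = 0.255). Abca1, which loads cholesterol onto apolipoprotein A-I, was lower, with 9.71 and 9.46 in anti-CSF1R liver, against 10.16, 9.97 and 10.05 in control liver (-0.48 ± 0.13, SE; limma, adjusted p = 0.201). Abcg1, an exporter to high density lipoprotein, had 6.79 and 6.96 in anti-CSF1R liver, against 7.22, 7.30 and 7.08 in control liver (-0.33 ± 0.12, SE).

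Fatty acid synthesis, driven mainly by the related factor SREBP1, is set beside the cholesterol genes because both depend on SCAP and the same proteases. Of 18 genes 17 were lower, 10 of them with groups apart against 19.5% of all genes, with a median of -0.48. The other gene, Dgat2, named after its value was seen, was higher with groups apart (0.11, unadjusted p = 0.307 in limma). This median was -0.29 on anti-CSF1R replicate 1 and -0.58 on replicate 2, where that of the cholesterol genes was -0.25 and -0.22. No test of the difference between the lists was run. Srebf1, which encodes SREBP1, had 8.99 and 8.83 in anti-CSF1R liver, against 9.93, 9.56 and 9.75 in control liver (-0.83, 95% interval -1.19 to -0.48). Thrsp, a regulator of fat synthesis, differed by -0.64 and Fasn, the fatty acid synthase, by -0.71, both with the groups apart. For Srebf2 the interval was -0.58 to -0.094, at a difference of -0.34.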

How the data were processed

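Whole liver RNA was prepared with Trizol, amplified with a Pico SL kit and labelled with biotin, per the labels' protocols. The deposited values are probe set intensities on a linear scale, 1 per array for 35556 probe sets, with array medians between 32.5 and 33.9. They came from Affymetrix Expression Console 1.1, per the submitters' processing notes. No source used here gives its summarisation, background or normalization settings. How arrays were scaled can add shifts with signal level, and amplification can alter dim against bright transcripts.

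Log2 of the deposited intensity was taken with no filter. Of the probe sets 21218 had 1 symbol in the platform annotation, 1881 had several and 12457 were not listed there. Groups came from the sample titles. All probe sets entered a linear model by the limma package 3.58.1 under R 4.3.3 (functions lmFit, then eBayes, 3 residual and 3.03 prior degrees of freedom, two-sided) with Benjamini-Hochberg adjustment over all of them and a threshold of 0.05. The fit was tested on simulated data with added differences larger than that of any measured cholesterol gene. That test does not show how well the fit calls differences of the size seen here. Intervals are 95% intervals from that fit. Precision is limited by how few arrays there are, with a median SE over all probe sets of 0.138. Permuting 5 arrays cannot reach the threshold, and no such test was run. Genes were taken as all 30 of the list, and from other lists up to 3 of smallest p. The members and lists were chosen with earlier results of these data known, so their counts are descriptions. Alternatives covered scaling, filters, variance models, array weights, a replicate block, a pseudocount and leaving out each array. Python 3.11.15 and matplotlib 3.10.9 drew the figures.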

Additional observations from a re-analysis of the deposited data

How the results depend on the processing

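None of the 26 cholesterol genes passed an adjusted p of 0.05 in limma under any of the 15 refits (smallest 0.0598, with 1 probe set per gene tested), while 7 to 12 were lower at an unadjusted p under 0.05. With 1 probe set per gene tested, 9 genes were lower and 5 higher among all 18820, none of them a cholesterol gene. The median difference over the 26 genes kept its sign, at -0.27 to -0.18 when 1 array was left out (-0.18 without control replicate 3) and -0.19 with arrays centred on their medians. Between 0 and 4 genes were higher with groups apart when 1 array was left out, the 4 being without anti-CSF1R replicate 1. Between 15 and 18 were lower with groups apart in the same fits, 17 of them without anti-CSF1R replicate 1. With 1 anti-CSF1R array left, only that array has to lie beyond the controls, which is met more easily. The 19.5% and 25.1% of all genes are for all 5 arrays, and no such shares were taken with 1 array left out. The labels do not say that replicate numbers pair the mice, so the numbers were not taken as pairs. Same-numbered arrays of the 2 groups deviated together with correlations of 0.027 and 0.033. The 2 anti-CSF1R arrays deviate from their own mean by equal and opposite amounts, so these correlations cannot decide on pairing. With the replicate number as a block the median was -0.18 and 7 genes were lower at an unadjusted p under 0.05 in limma. Control replicate 3 has no same-numbered partner, so this fit gave the same differences as leaving that array out and is no separate check.

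Of 391 single-gene values under the alternatives 374 kept their direction and 17, of 8 genes, did not. Many could not change, since filters, the variance setting and testing 1 probe set per gene leave a gene's difference as it was. The 374 is therefore not a count of independent checks. With cyclic loess and quantile normalization Ggps1 was at 0.0090 and 0.0026, Ebp at -0.0067 and -0.029, and Mylip at 0.046 and 0.043. Npc1l1 was at -0.013 with cyclic loess, and was not tested without probe sets under the median. When 1 array was left out, Mvk ranged from -0.22 to 0.36, Ggps1 from -0.26 to 0.0082, Tm7sf2 from -0.016 to 0.24, Ebp from -0.053 to 0.13, Insig2 from -0.16 to 0.056, Mbtps1 from -0.016 to 0.032, Mylip from -0.22 to 0.075 and Npc1l1 from -0.0012 to 0.23. The cause was not tested. Without 1 anti-CSF1R array, the fit takes the spread of the remaining one from the controls.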
